A study of Mus musculus with 12 samples.

Results

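The genes described here are 54 components of the Wnt signalling pathway, taken by name from the 48709 genes of the count files and grouped by role into 10 ligands, 12 receptors, 6 genes of the R-spondin axis, 7 cytoplasmic transducers, 4 nuclear factors, 8 secreted inhibitors and 7 feedback genes. All 54 were found, and 52 of them passed the filter on low counts (5 counts or more in 6 or more of the 12 libraries) and were tested together with the other genes that passed, 18847 in all. The names come from a list of pathway components, made with earlier results of these data known. RNA was sequenced from primary hippocampal cultures of CD1 mouse embryos at embryonic day 17, which were treated at day 10 in vitro (DIV10) and harvested 48 h later, at DIV12. One group of 6 libraries received lipid nanoparticles with a mimic of the microRNA miR-148a-3p (mimic) and the other group of 6 received nanoparticles with a negative control oligonucleotide (control). According to the study's methods both groups also received the apolipoprotein ApoE4 with the particles, and hippocampi of several embryos were pooled for a preparation. The study describes its primary hippocampal cultures as holding glia beside neurons. The labels do not say whether the libraries of a group came from separate preparations, so the p-values measure the spread between these libraries, which may be technical.

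Wnt ligands are secreted lipid-modified proteins that bind Frizzled receptors together with the coreceptors Lrp5 or Lrp6. In the canonical branch this stops a complex of Apc, Axin and Gsk3b from marking beta-catenin (Ctnnb1) for degradation, and the stabilised beta-catenin acts with factors of the Tcf and Lef family on target genes, several of which encode inhibitors of the pathway itself. In the hippocampus the pathway is known for its part in regional patterning, in progenitor proliferation and in the formation of synapses.

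The oligonucleotide given to the cultures and the places where it could pair with Wnt transcripts are shown first, because a microRNA recognises a transcript mainly through its seed, bases 2 to 8 from its 5′ end. The mature mouse miR-148a-3p in RefSeq (build GRCm38.p6, chr6:51269829-51269850, minus strand) and the mimic on the reagent list of the study have the same 22 bases. The control is named as a siRNA in the series text but appears as a mimic control on the reagent list, so the second sequence and its site counts hold only if the listed oligonucleotide was the one used. The capitals mark the seed.
miR-148a-3p and mimic: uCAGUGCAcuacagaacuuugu
negative control as listed: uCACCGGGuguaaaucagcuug
Each of the 52 tested members had an annotated 3′ untranslated region (3′ UTR, the part of the transcript after the stop codon), and the longest one was searched on the transcribed strand for TGCACTG, which pairs with bases 2 to 8, or for GCACTGA, which pairs with bases 2 to 7 and has an A after it. A place where both matches coincide is an 8-base site, TGCACTGA. Sites were found in 14 of the 52 members (26.9%), and in 3308 of 15082 tested genes with a searched 3′ UTR (21.9%). The median length of the searched region was 1773 bases in the members and 1173 bases in the tested genes. 8-base sites were found in Wnt2b and Wnt10a, which is 3.85% of the members beside 4.15% of the tested genes. The strands below are those of the GRCm38 genome (the same build as mm10), each sequence reads 5′ to 3′ along the transcript, and the capitals mark the letters that match. The first 2 are the 8-base sites, and the third is the site in Lrp6, the member with a printed site whose level changed.
Wnt2b, chr3:104946648-104946655, minus strand: tcccctttgctTGCACTGActtct
Wnt10a, chr1:74803959-74803966, plus strand: gtgataggcaaTGCACTGAagctg
Lrp6, chr6:134448728-134448734, minus strand: taggagagactTGCACTGtcgtgt
Of the 14 members with a site, Lrp6 was higher in the mimic libraries, Fzd8 was lower, and 12 did not pass the test, which is 7.14% in each direction. Among all tested genes with a site 11.7% were higher and 19.2% were lower, and with an 8-base site 8.31% and 28.8%. In the members with a site the median log2 fold change was 0.072, and that of the members without one was 0.123, so both medians lay above 0. Over all tested genes the median was -0.036 with a site and 0.001 without. A match of letters is a description of the sequence and does not show binding. Sites for the seed of the listed negative control were found in 5 members (9.62%) and in 4.42% of the tested genes. One of the 5 is Lrp6, the only one of them called, so Lrp6 carries a site for each oligonucleotide. Among all tested genes with a site for the control, 23.6% were higher and 9.91% were lower, with a median log2 fold change of 0.038 beside -0.009 in those without. Here and below a log2 fold change compares mimic with control, and a gene was called higher or lower at an edgeR quasi-likelihood adjusted p under 0.05, adjusted over all 18847 genes.

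Of the 52 tested members, 15 were higher (28.8%) and 8 were lower (15.4%) in the mimic libraries, beside 11.5% higher and 10.7% lower among all tested genes (22.2% in either direction). The same shares of all tested genes stand beside the counts by role below. Each role holds few genes, so a count of 0 in a role differs little from these shares. The median log2 fold change of the members was 0.11 and that of all tested genes -0.012. In 14 members the 6 mimic libraries lay wholly on 1 side of the 6 control libraries, 10 of them above and 4 below, and the share of all tested genes without overlap was 13.3% (7.43% above, 5.83% below). The changes were moderate in size: the largest rise was that of Wif1, with a ratio of mimic to control of 1.93, and the lowest ratio was that of Dkk2, at 0.507.

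**Figure D1:**
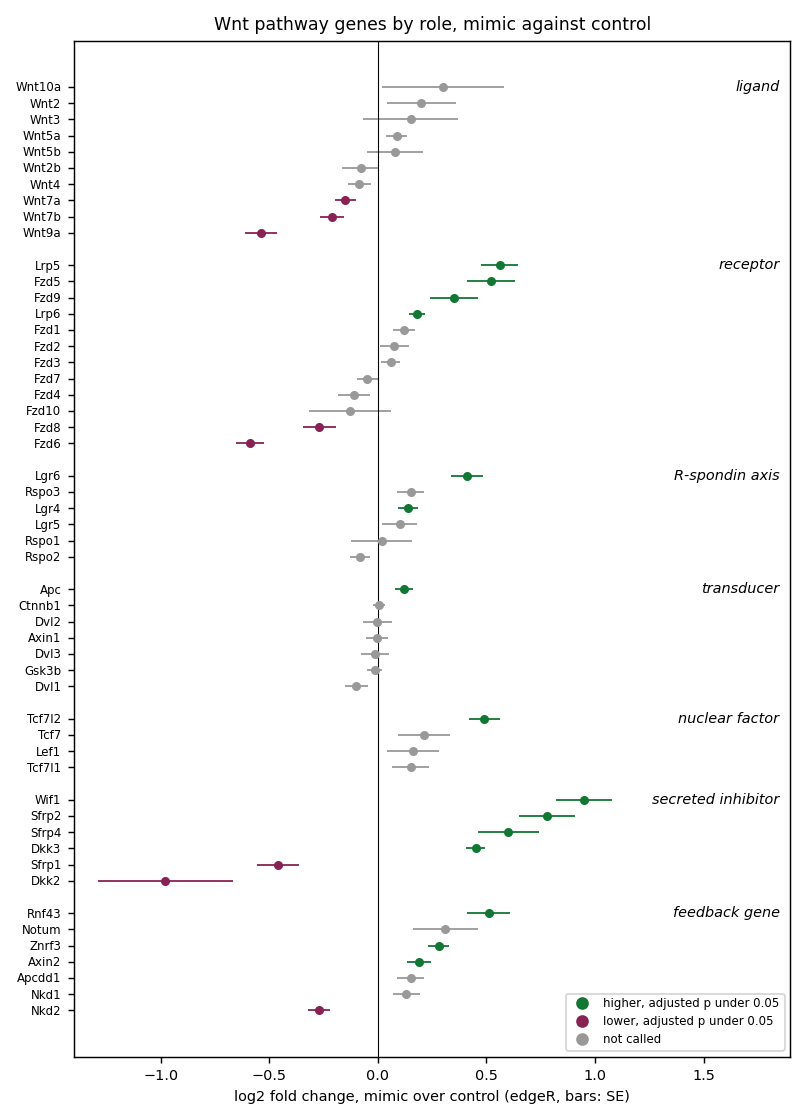
Log2 fold change of mimic over control (x axis, with the standard error as a bar) of the 52 tested Wnt pathway genes, grouped by role and ordered within each role; green marks genes called higher, purple genes called lower, grey genes not called. All 6 tested secreted inhibitors were called, 4 higher and 2 lower, whereas the transducers lie close to 0.

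Library totals ran from 20018234 to 37149112 counts, and the lowest was that of control replicate 1. This library stood apart from the other controls, with a score on the second principal component of all genes of 47.03 against -16.8 to 6.98. Among the marker lists for cell types, 3 had summed levels that did not overlap upwards: neural progenitors and cycling cells (480 to 518 CPM, counts scaled to the library total, in control and 679 to 734 CPM in mimic libraries; 8 of 10 markers higher), astrocytes (4948 to 5432 and 5807 to 6263 CPM; 7 of 10 higher, 1 lower) and the oligodendrocyte lineage (394 to 682 and 769 to 965 CPM; 6 of 10 higher, 1 lower). The astrocyte rise was not shared by all markers. Slc1a3 rose most, with control and mimic means of 913 ± 53.8 and 1815 ± 27.6 CPM (log2 fold change 0.99). Gfap fell, with control and mimic means of 1362 ± 70.2 and 731 ± 107 CPM (log2 fold change -0.90). The other astrocyte markers called higher rose by 0.17 (Gja1) to 0.59 (Fgfr3) on the log2 scale. No sum without Slc1a3 was taken, so a rise across the list was not shown. Olig1 made up most of the oligodendrocyte lineage sum, and the other 9 markers summed to 74.5 to 99.7 CPM in control and 114 to 137 CPM in mimic libraries. The mural cell sum lay below (102 to 171 and 79.5 to 91.6 CPM; 2 of 8 tested markers higher, 2 lower) through Acta2 and Tagln, while the other 8 markers summed to 47.7 to 67.0 CPM in control and 64.0 to 73.5 CPM in mimic libraries. The neuron sum overlapped (7124 to 7797 and 7029 to 7355 CPM; 1 of 10 higher, 3 lower), as did those of microglia, endothelial cells, meningeal fibroblasts, choroid plexus and Cajal-Retzius cells. The neuron overlap came from control replicates 1 and 2, at 7262 and 7124 CPM. The other controls (7631 to 7797 CPM) lay above all mimic libraries. The endothelial overlap came from control replicate 1 alone, at 48.6 CPM, since the other 5 controls (55.7 to 70.6 CPM) lay above all mimic libraries (30.2 to 53.2 CPM). Kdr made up most of the endothelial sum, at 58.6 ± 8.31 CPM in control and 37.6 ± 9.38 CPM in mimic libraries. The other endothelial markers each had a mean under 1 CPM. Of the 8 tested endothelial markers, 2 were lower (Kdr and Flt1) and none was higher. No marker was at 0 in all libraries, while Cldn5, Tie1, Kcnj8 and Abcc9 failed the count filter. In bulk RNA a change in the number of cells of a type and a change in RNA per cell cannot be told apart, and the part of the glial and progenitor markers in the Wnt results below was not tested.

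Compared per kilobase of exon, the highest levels belonged to the cytoplasmic transducers. Ctnnb1 stood at 204 ± 4.11 RPKM (SD, n = 6) in the control libraries, Apc at 66.8 ± 4.44 RPKM, Gsk3b at 41.4 ± 1.64 RPKM and Dvl1 at 22.2 ± 2.15 RPKM. The order after them was Wnt7b at 19.7 ± 2.11 RPKM, Dkk3 at 18.9 ± 0.417 RPKM and Fzd9 at 16.99 ± 3.91 RPKM. With the length of the longest transcript Wnt7b lay above Dvl1, at 28.4 and 23.2 RPKM. Dvl1, Wnt7b, Dkk3 and Fzd9 are neighbours whose control means differ by about their own spreads. In the other roles the highest control levels were those of Lgr4 (10.1 ± 0.745 RPKM) and Axin2, which both lay far below the transducers at the top. Several of the genes with large fold changes were at low levels: Wif1, Sfrp2, Sfrp4, Fzd5 and Rnf43 lay under 1 RPKM in control, as the plot of levels shows.

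**Figure D2:**
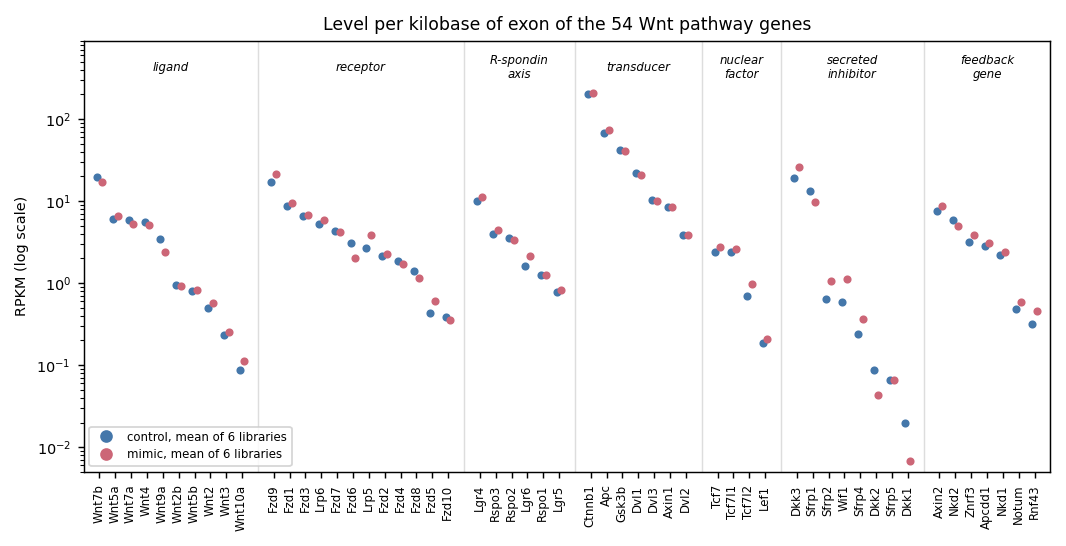
Mean RPKM of each of the 54 Wnt pathway genes in 6 control (blue) and 6 mimic (red) libraries on a log axis, ordered by control level within each role. Ctnnb1 is highest at 204 RPKM in control, and the secreted inhibitors span the widest range, from Dkk3 at 18.9 RPKM down to the untested Dkk1.

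Among the 10 ligands, 3 were lower and none was higher in the mimic libraries, beside 10.7% lower and 11.5% higher among all tested genes. The median log2 fold change of the ligands was -0.001. No ligand was higher at an unadjusted edgeR p under 0.05 either, and DESeq2 called 0 higher. Wnt9a (ENSMUSG00000000126, chr11:59306928-59333552, plus strand, mm10), a ligand studied mainly in joint and limb development, ran from 11.0 to 12.9 CPM in control (median 11.4) and from 6.82 to 9.17 CPM in mimic libraries (median 8.32). The groups did not overlap. Wnt9a fell by 0.54 (log2, SE 0.074, edgeR adjusted p = 3.95e-05), a ratio of mimic to control of 0.689. Wnt7b, the ligand with the highest level per length and one known to promote dendrite growth in hippocampal neurons, ran from 90.2 to 117 CPM in control (median 92.0) and from 79.7 to 85.8 CPM in mimic libraries (median 83.6). All mimic libraries lay below all controls, and the value of 117 CPM was that of control replicate 1. Wnt7b fell by 0.21 (log2, SE 0.055, edgeR adjusted p = 0.00912). Its log2 change was smaller without control replicate 1, at -0.15 (adjusted p = 0.000917), and without control replicates 1 and 2, at -0.13 (adjusted p = 0.000817). Its close relative Wnt7a, which acts on synapse formation, ran from 16.7 to 19.6 CPM (median 18.6) in control and from 16.0 to 17.4 CPM (median 16.4) in mimic libraries, where the groups overlapped slightly. The log2 change of Wnt7a was -0.15 (SE 0.048, edgeR adjusted p = 0.0299), and the call was lost when any of 7 libraries (control replicates 2, 3 or 5, mimic replicates 1, 2, 3 or 5) was left out, with an adjusted p of up to 0.0671. Exons of Wnt7b overlap the antisense gene AU022754, which had a mean of 99.2 counts beside 2657.7 for Wnt7b.

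The other 7 ligands did not pass the test. Wnt5a, the main ligand of the beta-catenin-independent branch, ran from 43.6 to 54.6 CPM in control (median 46.9) and from 48.5 to 51.9 CPM in mimic libraries (median 51.5). The ranges overlapped, since the mimic range lay within that of the controls. Its log2 change was 0.086 (SE 0.047, edgeR adjusted p = 0.230), and 0.12 with an adjusted p of 0.0166 without control replicate 1. Wnt4 stood at a median of 22.3 CPM in control and 22.0 CPM in mimic libraries. Wnt2, Wnt2b, Wnt3, Wnt5b and Wnt10a were at low levels, with medians between 0.214 CPM (Wnt10a) and 3.98 CPM (Wnt2b) in control. Wnt2b and Wnt10a, which carry the 8-base sites printed above, had log2 changes of -0.080 (SE 0.087, edgeR adjusted p = 0.582) and 0.30 (SE 0.28, adjusted p = 0.544). Wnt10a rests on 3 to 12 counts per library.

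Of the 12 receptors, 4 were higher and 2 were lower, with a median log2 fold change of 0.067. Both coreceptors rose. Lrp5 (ENSMUSG00000024913, chr19:3584828-3686564, minus strand, mm10) ran from 21.1 to 33.4 CPM in control (median 24.7) and from 34.0 to 40.6 CPM in mimic libraries (median 37.5). The groups stayed apart by a narrow gap, the highest control being replicate 1. Its log2 fold change was 0.56 (SE 0.086, edgeR adjusted p = 0.00015), a ratio of 1.47. Lrp6 was at a higher level and moved less, from 66.1 to 75.6 CPM in control (median 73.2) to between 78.3 and 83.0 CPM in mimic libraries (median 82.0). Every mimic library lay above every control. Lrp6 is the member with a 7-base site printed above, and it has a site for the control seed too. The log2 fold change of Lrp6 was 0.18 (SE 0.038, edgeR adjusted p = 0.00217).

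The Frizzled receptors, the seven-pass membrane proteins that bind the ligands, moved in both directions. Fzd6 (ENSMUSG00000022297, chr15:39006034-39038188, plus strand, mm10), known for its part in planar cell polarity, ran from 13.3 to 16.0 CPM in control (median 14.8) and from 8.96 to 11.3 CPM in mimic libraries (median 9.74). The groups were well separated. Fzd6 fell by 0.59 (log2, SE 0.063, edgeR adjusted p = 2.87e-06), a ratio of 0.666, and no seed match was found in its 3′ UTR. Fzd8 ran from 7.19 to 9.39 CPM in control (median 8.38) and from 6.22 to 7.48 CPM in mimic libraries (median 6.92), with overlap of the ranges. Its log2 change was -0.27 (SE 0.077, edgeR adjusted p = 0.0175), and leaving out mimic replicate 3 gave an adjusted p of 0.0502. Fzd8 has 1 short seed match in its 3′ UTR.

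Fzd5 and Fzd9 were higher. Fzd5, best known from eye and gut development, ran from 2.45 to 3.33 CPM in control (median 2.95) and from 3.48 to 5.03 CPM in mimic libraries (median 4.30). Its groups did not overlap, and the rise was 0.52 in log2 (SE 0.11, edgeR adjusted p = 0.00177). Fzd9, a receptor found in hippocampal neurons and their progenitors, ran from 32.6 to 56.7 CPM in control (median 35.8) and from 47.8 to 52.8 CPM in mimic libraries (median 48.6). Of the controls, 5 lay below all mimic libraries, at 32.6 to 39.0 CPM, and control replicate 1 lay above them all. The log2 fold change was 0.35 (SE 0.11, edgeR adjusted p = 0.0270), and 0.48 with an adjusted p of 7.02e-08 without control replicate 1. With that library kept, leaving out control replicate 3, 4, 5 or 6 or mimic replicate 1 ended the call, with an adjusted p of up to 0.0628. The 6 Frizzled genes that did not pass the test (Fzd1, Fzd2, Fzd3, Fzd4, Fzd7 and Fzd10) had log2 changes from -0.13 to 0.12, and among them Fzd1 had an adjusted p of 0.0969, which was 0.0129 without control replicate 1. Fzd4 carries 2 seed matches and had a log2 change of -0.11 (SE 0.072, edgeR adjusted p = 0.321).

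**Figure D3:**
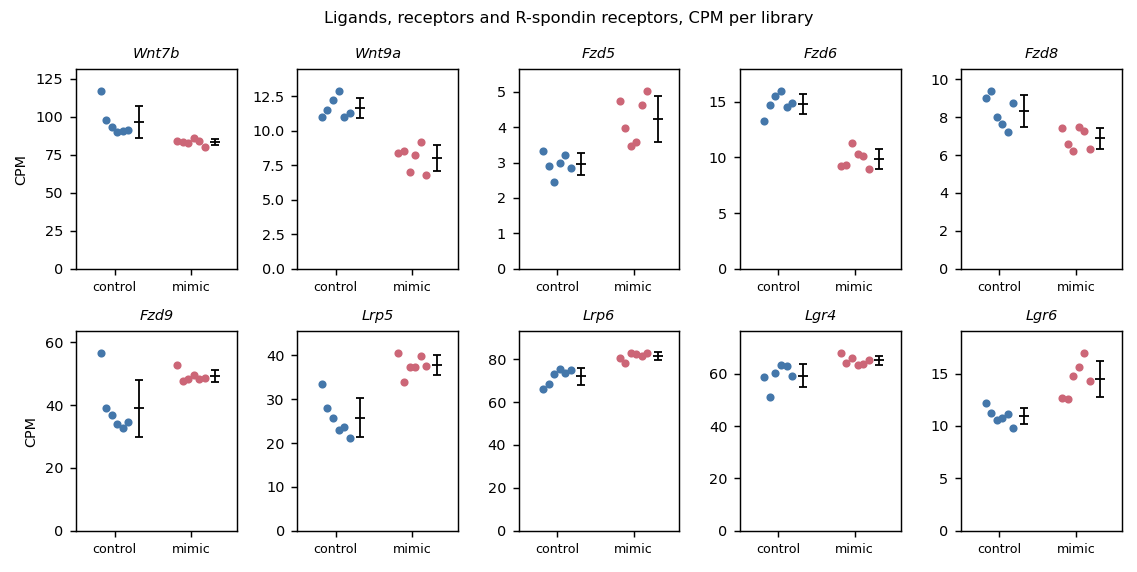
CPM of 10 ligands, receptors and R-spondin receptors in each control (blue) and mimic (red) library, with the mean and SD of the 6 libraries as a black bar; each y axis starts at 0. Wnt9a and Fzd6 lie lower and Lrp5 and Lgr6 higher in the mimic libraries without overlap, while 1 control library of Fzd9 lies at 56.7 CPM.

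The R-spondin axis amplifies Wnt signals: R-spondins bind Lgr receptors and remove the ubiquitin ligases Rnf43 and Znrf3, which otherwise clear Frizzled from the membrane. Of its 6 genes, 2 receptors were higher and none was lower, with a median log2 fold change of 0.12; at an unadjusted p under 0.05, edgeR gave 3 higher and 0 lower, and DESeq2 called 2 higher and 0 lower. Lgr6 (ENSMUSG00000042793, chr1:134983301-135105276, minus strand, mm10) ran from 9.77 to 12.2 CPM in control (median 10.9) and from 12.6 to 16.99 CPM in mimic libraries (median 14.6). The groups did not overlap. Lgr6 rose by 0.41 (log2, SE 0.075, edgeR adjusted p = 0.000567), a ratio of 1.33. Lgr4, the receptor of this axis with the highest level per length, ran from 51.1 to 63.2 CPM in control (median 59.6) and from 63.2 to 68.1 CPM in mimic libraries (median 64.9). The 2 ranges met at their ends without overlap, and control replicate 2 lay lowest. The rise of 0.14 in log2 (SE 0.046, edgeR adjusted p = 0.0432) was called in 3 of 12 fits that left out 1 library (those without control replicate 1, 4 or 5), and its adjusted p reached 0.101 without mimic replicate 1. Without control replicates 1 and 2 the rise was 0.086 (adjusted p = 0.0445). The ligands Rspo1, Rspo2 and Rspo3 and the receptor Lgr5 had log2 changes from -0.081 (Rspo2) to 0.15 (Rspo3) and did not pass the test. Rspo3, at 10.7 to 13.9 CPM in control and 13.1 to 14.6 CPM in mimic libraries, had an adjusted p of 0.0914 in edgeR and of 0.0340 without control replicate 6.

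The transducers carried the smallest differences. Of 7 genes, 1 was higher and none was lower, the median log2 fold change was -0.006, and at an unadjusted edgeR p under 0.05 the counts were 1 and 0, as they were among the DESeq2 calls. Ctnnb1 ran from 1032 to 1094 CPM in control (median 1060) and from 1048 to 1097 CPM in mimic libraries (median 1063). The groups covered nearly the same range. Its log2 change was 0.0056 (SE 0.028, edgeR adjusted p = 0.923). This concerns the transcript; the pathway acts on beta-catenin mainly at the level of the protein, which was not measured here. Apc, the scaffold of the degradation complex, ran from 953 to 1126 CPM in control (median 1116) and from 1149 to 1203 CPM in mimic libraries (median 1172). There was no overlap, but control replicates 1 and 2 lay well below the other controls, at 1028 and 953 CPM. Its log2 fold change was 0.12 (SE 0.041, edgeR adjusted p = 0.0359), and the call was lost when control replicate 2 or mimic replicate 1, 2, 3, 5 or 6 was left out, with an adjusted p of up to 0.0769. Without control replicates 1 and 2, the change in Apc was 0.068 in log2 (adjusted p = 0.0217). Gsk3b, the kinase of that complex, Axin1 and Dvl1, Dvl2 and Dvl3, which relay the signal from the receptors, had log2 changes from -0.10 (Dvl1) to -0.0029 (Dvl2). The exons of Dvl2 overlap those of Acadvl on the other strand, at means of 721.1 and 926.6 counts, so its level is uncertain.

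Among the 4 nuclear factors Tcf7l2 was higher and the other 3 did not pass the test, with a median log2 fold change of 0.18. No nuclear factor was lower, at an unadjusted edgeR p under 0.05 or among the DESeq2 calls (0 in each). Tcf7l2 (ENSMUSG00000024985, chr19:55741820-55933654, plus strand, mm10), a DNA-binding partner of beta-catenin with known roles in oligodendrocytes and thalamic neurons, ran from 5.44 to 6.67 CPM in control (median 5.95) and from 7.73 to 9.37 CPM in mimic libraries (median 8.62). Its groups were separate. The log2 fold change was 0.49 (SE 0.070, edgeR adjusted p = 5.22e-05), a ratio of 1.41. Tcf7 ran from 3.79 CPM, in control replicate 1, to 7.49 CPM in control and from 6.22 to 8.36 CPM in mimic libraries, with a log2 change of 0.21 (SE 0.12, edgeR adjusted p = 0.253). Without control replicate 1 the log2 change of Tcf7 was 0.11 (edgeR adjusted p = 0.346). Lef1 and Tcf7l1 had log2 changes of 0.16 and 0.15, and Tcf7l1 reached an adjusted p of 0.0335 without control replicate 1, so that 2 nuclear factors were higher there.

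All 6 tested secreted inhibitors passed the test, 4 higher and 2 lower, with a median log2 fold change of 0.52. The largest fall, that of Dkk2, rests on few counts, and among members called in every fit that left out 1 library the receptor Fzd6 fell most. Wif1 (ENSMUSG00000020218, chr10:121033960-121100650, plus strand, mm10), which binds Wnt ligands outside the cell, ran from 1.13 to 1.67 CPM in control (median 1.43) and from 2.35 to 3.34 CPM in mimic libraries (median 2.59). The groups did not overlap. The log2 fold change of Wif1 was 0.95 (SE 0.13, edgeR adjusted p = 2.72e-05). Dkk3 (ENSMUSG00000030772, chr7:112116017-112159057, minus strand, mm10), a secreted member of the Dickkopf family whose effect on Wnt signalling depends on context, ran from 61.5 to 65.0 CPM in control (median 63.8) and from 79.8 to 93.9 CPM in mimic libraries (median 85.3). Its controls lay within a narrow band, far below the mimic libraries. The log2 fold change of Dkk3 was 0.45 (SE 0.043, edgeR adjusted p = 6.51e-07), a ratio of 1.36, and its level per length rose from 18.9 ± 0.417 to 25.8 ± 1.74 RPKM (SD, n = 6 each).

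The secreted Frizzled-related proteins bind Wnt ligands through a domain like that of the receptors. Sfrp2 ran from 1.01 to 1.87 CPM in control (median 1.32) and from 1.84 to 2.68 CPM in mimic libraries (median 2.32), and only control replicate 1 reached into the mimic range. Its log2 fold change was 0.78 (SE 0.13, edgeR adjusted p = 0.000309), a ratio of 1.72. Sfrp4 ran from 0.850 to 1.31 CPM in control (median 0.957) and from 1.196 to 1.86 CPM in mimic libraries (median 1.49), with control replicate 1 again highest among the controls and inside the mimic range. Sfrp4 rose by 0.60 (log2, SE 0.14, edgeR adjusted p = 0.00419). Sfrp1, the most abundant of them per length, went the other way. It ran from 39.5 to 65.1 CPM in control (median 61.9) and from 38.0 to 47.3 CPM in mimic libraries (median 42.3). Of the controls, 5 lay above every mimic library, at 56.9 to 65.1 CPM, and control replicate 1 lay among the mimic libraries. Sfrp1 fell by 0.46 (log2, SE 0.097, edgeR adjusted p = 0.00251), and by 0.55 without control replicate 1 (adjusted p = 9.03e-08).

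Dkk2, a Dickkopf protein that binds Lrp coreceptors, had between 1 and 14 counts per library. It ran from 0.269 to 0.433 CPM in control (median 0.313) and from 0.0351 to 0.270 CPM in mimic libraries (median 0.164), with a marginal overlap. Its log2 change was -0.98 (SE 0.31, edgeR adjusted p = 0.0311). The call was lost without control replicate 2 or 4 or mimic replicate 2, 4 or 6, with an adjusted p of up to 0.0772, and DESeq2 gave no adjusted p for it. Dkk1 (0 to 3 counts per library) and Sfrp5 (0 to 7 counts) failed the filter, and no difference in them was detectable at this depth.

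The feedback genes are induced by canonical Wnt signalling in many tissues and restrain it. Of 7, 3 were higher and 1 was lower, with a median log2 fold change of 0.19, and without control replicate 1 the counts were 5 and 1, with a median of 0.23. Axin2 (ENSMUSG00000000142, chr11:108920349-108950783, plus strand, mm10), the most widely used reporter gene of the canonical branch, ran from 39.2 to 48.4 CPM in control (median 39.9) and from 43.2 to 50.0 CPM in mimic libraries (median 48.0). The ranges overlapped through control replicate 1, at 48.4 CPM, while the other 5 controls lay between 39.2 and 43.1 CPM. Its log2 fold change was 0.19 (SE 0.054, edgeR adjusted p = 0.0180), and over the 12 fits that each left out 1 library its adjusted p lay between 0.00022 and 0.0493. The ubiquitin ligases Znrf3 and Rnf43, which remove Frizzled from the membrane, both rose. Znrf3 ran from 23.3 to 26.8 CPM in control (median 25.0) and from 28.2 to 33.4 CPM in mimic libraries (median 29.9), without overlap. Znrf3 rose by 0.28 (log2, SE 0.048, edgeR adjusted p = 0.000365). Rnf43 was far lower in level, from 1.70 to 2.73 CPM in control (median 2.05) and from 2.68 to 3.14 CPM in mimic libraries (median 3.02). Only control replicate 1 reached into the mimic range, and the log2 fold change was 0.51 (SE 0.10, edgeR adjusted p = 0.00121).

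Nkd2, an antagonist that binds Dishevelled, was the feedback gene that fell. It ran from 26.4 to 30.9 CPM in control (median 29.0) and from 21.3 to 25.3 CPM in mimic libraries (median 24.2), and the groups did not overlap. Its log2 change was -0.27 (SE 0.051, edgeR adjusted p = 0.000937). Its paralogue Nkd1 ran from 9.25 to 11.7 CPM in control (median 9.78) and from 10.02 to 11.4 CPM in mimic libraries (median 11.0), with a log2 change of 0.13 (SE 0.062, edgeR adjusted p = 0.141). Apcdd1, a membrane inhibitor of Wnt and its receptors, ran from 32.5 to 44.7 CPM in control (median 35.1) and from 36.5 to 43.2 CPM in mimic libraries (median 40.4), with a log2 change of 0.15 (SE 0.064, edgeR adjusted p = 0.121). In both genes control replicate 1 was the highest of all 12 libraries. Without it the log2 changes were 0.18 for Nkd1 and 0.21 for Apcdd1, with adjusted p values of 0.0184 and 0.00106. Notum, which strips the lipid from Wnt ligands, had 25 to 57 counts per library and a log2 change of 0.31 (SE 0.15, edgeR adjusted p = 0.179), and it overlaps antisense genes.

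**Figure D4:**
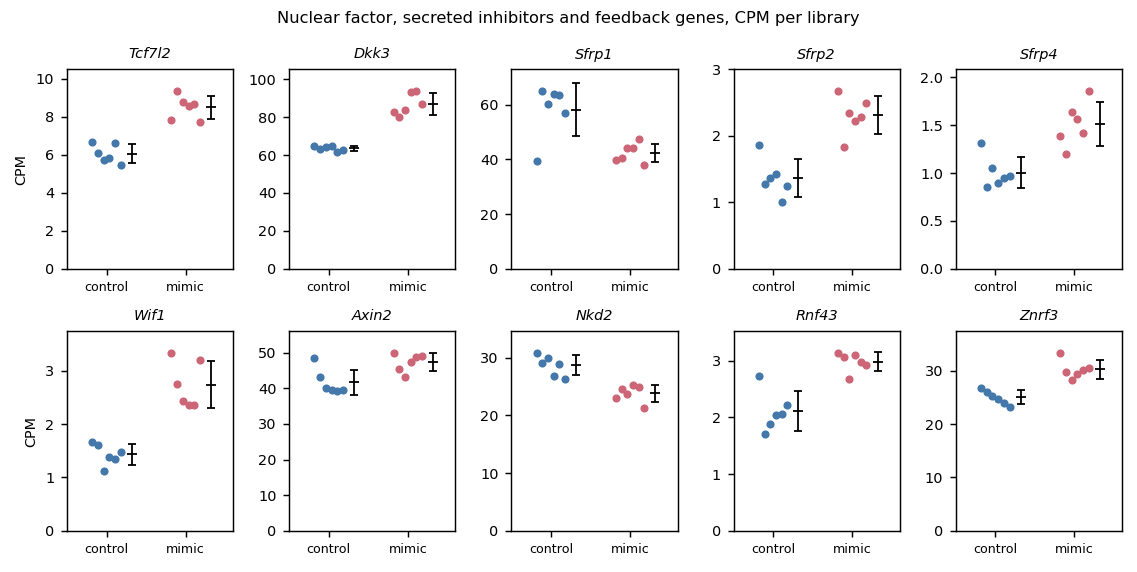
CPM of Tcf7l2, 5 secreted inhibitors and 4 feedback genes in each control (blue) and mimic (red) library, with the mean and SD of the 6 libraries as a black bar; each y axis starts at 0. Sfrp1 and Nkd2 lie lower in mimic libraries and the other 8 genes higher, and the single low control of Sfrp1 at 39.5 CPM is replicate 1.

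Several values above moved when control replicate 1 was left out, and its marker levels are given beside them. Its oligodendrocyte lineage sum was 682 CPM beside 394 to 424 CPM in the other 5 controls. This was Olig1, at 594 CPM beside 306 to 339 CPM in the other controls and 652 to 834 CPM in the mimic libraries, whereas the other 9 markers of the list summed to 88.6 CPM, within the range of the other controls. Its meningeal fibroblast sum was above theirs (202 against 138 to 163 CPM). Its sums for choroid plexus (307 against 370 to 515 CPM), mural cells (102 against 115 to 171 CPM), endothelial cells (48.6 against 55.7 to 70.6 CPM, mostly Kdr) and microglia (23.4 against 23.6 to 27.0 CPM) were below. Those for neurons, astrocytes, progenitors and cycling cells, and Cajal-Retzius cells lay within. In this library Fzd9 was at 56.7 CPM, Apcdd1 at 44.7 CPM, Axin2 at 48.4 CPM and Nkd1 at 11.7 CPM, each the highest of the controls, and Sfrp1 at 39.5 CPM and Tcf7 at 3.79 CPM, each the lowest. Calls for the members without this library were 20 higher and 8 lower, beside 14.3% higher and 13.0% lower among all tested genes: all 15 called with it were called again, and Wnt5a, Fzd1, Tcf7l1, Nkd1 and Apcdd1 were added. The part of Olig1-expressing or other cells in the levels of these genes was not tested.

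A further 88 genes of the pathway, of which 82 were tested, gave 11 higher (13.4%) and 11 lower (13.4%), close to the 11.5% and 10.7% of all tested genes, with a median log2 fold change of -0.024. Of 15 tested genes of Wnt secretion, receptors and extracellular regulators, 6 were higher and 2 were lower, and of 20 cytoplasmic components 1 was lower (Amer3, by 0.13 on the log2 scale) and none was higher (0 at an unadjusted edgeR p under 0.05, and 0 DESeq2 calls). Frzb, another secreted Frizzled-related inhibitor, rose from 10.8 ± 0.837 to 14.1 ± 1.36 CPM (SD over the 6 libraries of a group), a log2 fold change of 0.39 with an edgeR adjusted p of 0.000509. Kremen1, a receptor for Dickkopf proteins, and Gpc4, a glypican of the cell surface, both had log2 fold changes of 0.34 (edgeR adjusted p = 0.000354 and 4.55e-05). Ror2, a receptor that Wnt5a binds, had a mean of 97.83 counts, just under the minimum of 100 for naming a gene of these lists, and is named after its values were seen: it rose from 2.29 ± 0.346 to 4.24 ± 0.390 CPM (log2 fold change 0.90, edgeR adjusted p = 4.24e-06).

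Of 8 other ligands Wnt8b was higher, with a log2 fold change of 0.36 (edgeR adjusted p = 2.28e-05), and none was lower (0 at an unadjusted p under 0.05 and 0 DESeq2 calls). Among 15 nuclear cofactors the corepressor Tle4 was higher (0.19) and its relative Tle2 was lower (-0.25). Among 12 genes of planar cell polarity Prickle1 was higher (0.24), and 3 were lower, of which Daam2 (-0.29) and Ankrd6 (-0.17) had the largest changes. Of 12 tested genes listed as Wnt targets, 2 were higher and 4 were lower. Myc, a growth regulator, fell from 20.8 ± 1.78 to 16.5 ± 0.878 CPM, a log2 change of -0.33 with an edgeR adjusted p of 0.000532. Bambi had a log2 change of -0.37 (edgeR adjusted p = 0.000624) and Cd44 one of -0.29 (edgeR adjusted p = 0.00481). The 2 that rose were Tnfrsf19 (log2 0.28, edgeR adjusted p = 2.04e-05, without overlap of the groups) and Id2 (log2 0.11, edgeR adjusted p = 0.0287), which are named after their values were seen.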

How the data were processed

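Poly(A) RNA of 6 control and 6 mimic cultures was sequenced as 50 bp single-end reads with a TruSeq kit. The authors aligned reads to mm10 (STAR 2.5.2b) and counted them per gene (featureCounts, Subread 1.5.1), and the deposited counts are raw whole numbers for 48709 Ensembl genes. The annotation release and strand setting of the counting are not given in the sources used here, so overlapping and antisense genes are uncertain. The normalized table of the series was not used. Symbols, exons and 3′ UTRs came from GENCODE M21 (GRCm38), which named 48349 genes. Genes with at least 5 counts in 50% of the samples were tested with the edgeR 4.0.16 quasi-likelihood test (R 4.3.3, TMM, robust, no covariate, Benjamini-Hochberg adjustment). CPM and RPKM use TMM-scaled totals and the union of exons. Alternatives used DESeq2 1.42.0, limma 3.58.1, other normalization and filters, a replicate block and left-out libraries. The fitting script was tested on simulated data. Members and lists were chosen with earlier results of these data known; all called members are named, and by rule at most 3 called genes of each other list with a mean of at least 100 counts. Ror2, Tnfrsf19 and Id2 were added after their values were seen. Totals of 20018234 to 37149112 counts per library set the precision, which is lowest for members with few counts.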

Additional observations from a re-analysis of the deposited data

Results flagged for a closer look

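In each group of 6 libraries, the highest or lowest library was marked where its gap to the nearest other, divided by the range of the group, was above Dixon's 95% critical value. This was examined in 104 groups (52 members in control and in mimic), of which chance would mark about 5.20, and 8 were marked. Of the 8, 6 were in control replicate 1: Wnt7b was highest there at 117 CPM (other controls 90.2 to 97.8), Fzd9 at 56.7 CPM (32.6 to 39.0), Apcdd1 at 44.7 CPM (32.5 to 36.8) and Nkd1 at 11.7 CPM (9.25 to 9.99), while Sfrp1 was lowest at 39.5 CPM (56.9 to 65.1) and Tcf7 at 3.79 CPM (6.26 to 7.49). Lgr4 was lowest in control replicate 2 at 51.1 CPM (58.8 to 63.2). Fzd7 was lowest in mimic replicate 6 at 16.9 CPM (19.2 to 19.9).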

How the results depend on the processing

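The number of members called was 12 to 20 higher and 6 to 8 lower over the 12 fits that each left out 1 library, beside 9.94% to 14.3% and 8.68% to 13.0% of all tested genes. Of the 23 called members, 17 were called in all 12 of these fits, and the exceptions were Wnt7a, Fzd8, Fzd9, Lgr4, Apc and Dkk2. Without the count filter 13 members were higher and 6 lower (5.95% and 5.13% of all genes), and Fzd9, Lgr4, Dkk2 and Wnt7a were not called. With a mean of at least 10 counts as the filter, 15 were higher and 7 lower (12.9% and 12.7% of all genes). Against a minimum fold of 1.2 (edgeR glmTreat), 5 members were higher and 2 lower (3.62% and 1.87% of all genes), which follows from the stricter hypothesis. Of the other Wnt genes, 1 was then higher and 0 lower, with 5 and 2 at an unadjusted p under 0.05. DESeq2 called 12 of these 82 genes higher and 13 lower, beside 12.4% and 11.4% of all tested genes. Without control replicates 1 and 2, 22 members (42.3%) did not overlap between groups, beside 23.3% of all tested genes, and 17 of the other Wnt genes were called higher (20.7%) and 15 lower (18.3%), beside 16.2% and 15.3% of all tested genes. Without control replicate 1, an alternative by role chosen after seeing the data, 1 ligand, 5 receptors, 2 nuclear factors and 5 feedback genes were higher. The share of all tested genes called higher in that fit was 14.3%. With all 12 libraries the counts in these roles were 0, 4, 1 and 3. The cause was not tested. Counting 8-base sites alone left 2 members with a site.

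Signs turned only in members that did not pass the test and lay near 0. With limma voom and sample weights, the log2 changes were -0.053 for Rspo1, 0.072 for Dvl2, 0.070 for Dvl3 and 0.039 for Axin1. Without control replicates 1 and 2 they were -0.076, 0.10, 0.083 and 0.049. With each library left out they ran from -0.048 to 0.093 (Rspo1), -0.034 to 0.051 (Dvl2), -0.043 to 0.051 (Dvl3), -0.003 to 0.014 (Ctnnb1), -0.028 to 0.030 (Axin1) and -0.032 to 0.0025 (Gsk3b). The cause was not tested. Replicate numbers did not pair the libraries: correlations of deviations from the group means were -0.0385 to 0.0928, and 0 libraries correlated best with their own number. With the replicate block, 13 members were higher and 6 lower (10.3% and 9.07% of all genes); Apc, Lgr4, Dkk2 and Wnt7a were not called. Depth limits Dkk1, Sfrp5, Dkk2 and Wnt10a, which had few counts.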
